A study of Mus musculus with 9 samples.

Results

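The constant region genes of immunoglobulin were followed through the bone marrow of 3 related mouse strains. The 10 genes were taken by symbol from the 31053 genes of the count table: 7 heavy chain genes (*Ighm*, *Ighd*, *Ighg1*, *Ighg2b*, *Ighg2c*, *Ighg3* and *Igha*) and 3 light chain genes (*Igkc*, *Iglc1* and *Iglc2*). Single cells were flushed from the femurs of 9 female mice, red cells were lysed, and the 3' ends of transcripts were counted as unique molecular identifiers (UMIs), with 1 library per mouse. There were 3 NZB mice, 3 NZW mice and 3 NZBWF1 mice, the last being the F1 generation of NZW mothers and NZB fathers, which goes on to develop a lupus-like disease. All were studied at 9 to 10 weeks of age, before overt disease. The labels name no treatment, transgene or targeted allele for any strain.

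An antibody heavy chain takes its class from its constant gene. *Ighm* (IgM) is the first to be expressed and *Ighd* (IgD) is added by alternative splicing in mature B cells. Class switch recombination then brings *Ighg* (IgG) or *Igha* (IgA) genes behind the variable region. Light chains are kappa, from *Igkc*, or lambda, from the *Iglc* genes, and in mice most B cells use kappa. Plasma cells secrete antibody and fill much of their transcriptome with these RNAs. Constant genes can also be transcribed on their own without a joined variable region, as germline transcripts, and a count of 3' ends does not tell these from coding transcripts, nor the secreted from the membrane form.

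The heavy chain genes lie together on the minus strand of chromosome 12, from *Igha* (chr12:113254830-113260236) over *Ighg2c*, *Ighg2b*, *Ighg1*, *Ighg3* and *Ighd* to *Ighm* (chr12:113418558-113422730). *Igkc* is on the plus strand of chromosome 6 (chr6:70726435-70726966). *Iglc1* (chr16:19061618-19062071) and *Iglc2* (chr16:19198396-19200351) are on the minus strand of chromosome 16. Positions are those of GENCODE on GRCm38, where each gene is annotated as an immunoglobulin constant gene, and all 10 carried the same Ensembl identifier in the count table. The neighbours of a gene limit how its reads could be assigned. Over the coding bases, *Iglc2* was 96.2% identical to *Iglc3* (chr16:19065230-19065681) with an identical stretch of 79 bases, while *Iglc1* was 73.8% identical to *Iglc2*. *Ighg2b* and *Ighg2c* were 85.9% identical with a longest shared stretch of 78 bases. The closest of these genes are shown by their last 90 coding bases, read 5' to 3' from the GENCODE transcripts, with capitals at the bases that differ from the first gene of each set.
Iglc2: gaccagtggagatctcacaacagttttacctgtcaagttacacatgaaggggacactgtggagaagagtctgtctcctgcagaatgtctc
Iglc3: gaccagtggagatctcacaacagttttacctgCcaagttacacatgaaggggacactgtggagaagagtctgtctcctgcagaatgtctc
Iglc1: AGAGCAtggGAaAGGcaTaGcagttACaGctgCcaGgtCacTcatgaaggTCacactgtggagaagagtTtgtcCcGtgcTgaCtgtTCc
Ighg2c: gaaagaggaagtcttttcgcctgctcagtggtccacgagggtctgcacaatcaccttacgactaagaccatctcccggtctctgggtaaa
Ighg2b: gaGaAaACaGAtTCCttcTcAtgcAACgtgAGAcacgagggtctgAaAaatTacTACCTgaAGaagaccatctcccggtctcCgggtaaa
Ighg1: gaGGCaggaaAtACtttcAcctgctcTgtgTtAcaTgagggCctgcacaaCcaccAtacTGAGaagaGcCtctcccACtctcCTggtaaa

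*Iglc3* differed from *Iglc2* at 1 of these 90 bases and *Iglc1* at 29, so *Iglc2* is read below with *Iglc3* beside it. *Ighg2b* differed from *Ighg2c* at 28 bases and *Ighg1* at 24. The reference is the C57BL/6J genome, which has *Ighg2c* where other strains have *Ighg2a*, and the alleles of NZB and NZW were not read here. A strain difference in a count therefore cannot be told apart from a difference in how well that strain's allele matched the reference.

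Of 39051 barcodes within the quality limits, 36542 cells were analysed after removal of likely doublets, 2359 to 5224 per mouse, with a median of 2107 to 2458 UMIs per cell and 7698881 to 16487485 UMIs per mouse. Cells were placed in gates by marker genes, none of them an immunoglobulin gene, and 4916 cells fell in no gate. The B-lineage gate held 6988 cells and the plasma gate 298 cells. Another 24340 cells in 11 gates stood outside both. The B-lineage gate showed all 9 of its markers, summed to 8131 to 10393 CPM (counts per 1e6 UMIs) per mouse, and the plasma gate all 10 of its own, summed to 53752 to 63715 CPM. Plasma-gated cells also held 141 to 10085 CPM of the 10 neutrophil markers, with 228 to 8210 in NZB, 2267 to 10085 in NZW and 141 to 3977 in NZBWF1 mice, and beyond leaving out the 38 cells that scored for another class, their part in the plasma results was not tested. Cell numbers were uneven. B-lineage cells numbered 177, 227 and 224 for NZB mice 1 to 3, 1211, 1012 and 1000 for NZW and 733, 841 and 1563 for NZBWF1. Plasma cells numbered 14, 48 and 40 in NZB, 6, 12 and 11 in NZW and 14, 51 and 102 in NZBWF1, so that NZW mouse 1, with fewer than 10, was left out of the plasma tests and kept only in counts of cells and in UMIs summed over a strain. Across all libraries 557 barcode sequences occurred more than once, of which 154 were among the cells analysed and 3 among B-lineage and plasma cells.

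In plasma cells the 10 constant genes took 48.8% to 65.8% of all UMIs (mean 61.2%, SD 5.30, n = 8 mice). In the B-lineage gate they took 0.695% to 1.08% (n = 9 mice), and in neutrophils 0.0107% to 0.0686%. Most of the plasma share was a single gene. *Igkc* stood at 459433, 446531 and 481952 CPM for NZB, 332024 and 443227 CPM for NZW mice 2 and 3, and 450189, 467895 and 554049 CPM for NZBWF1. *Ighm* followed with 121058, 129737 and 128445 CPM in NZB, 51436 and 127968 CPM in NZW, and 159178, 117238 and 97483 CPM in NZBWF1. NZW mouse 2 was lowest for each gene. For *Igkc* both NZW mice lay below the other 6, and for *Ighm* the strains overlapped. *Igha* ranged from 6.02 CPM in NZBWF1 mouse 2 to 36513 CPM in NZW mouse 3. *Ighd*, a gene of mature B cells, had 7 UMIs in all 298 plasma cells, against 342930 UMIs of *Ighm*.

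**Figure D1:**
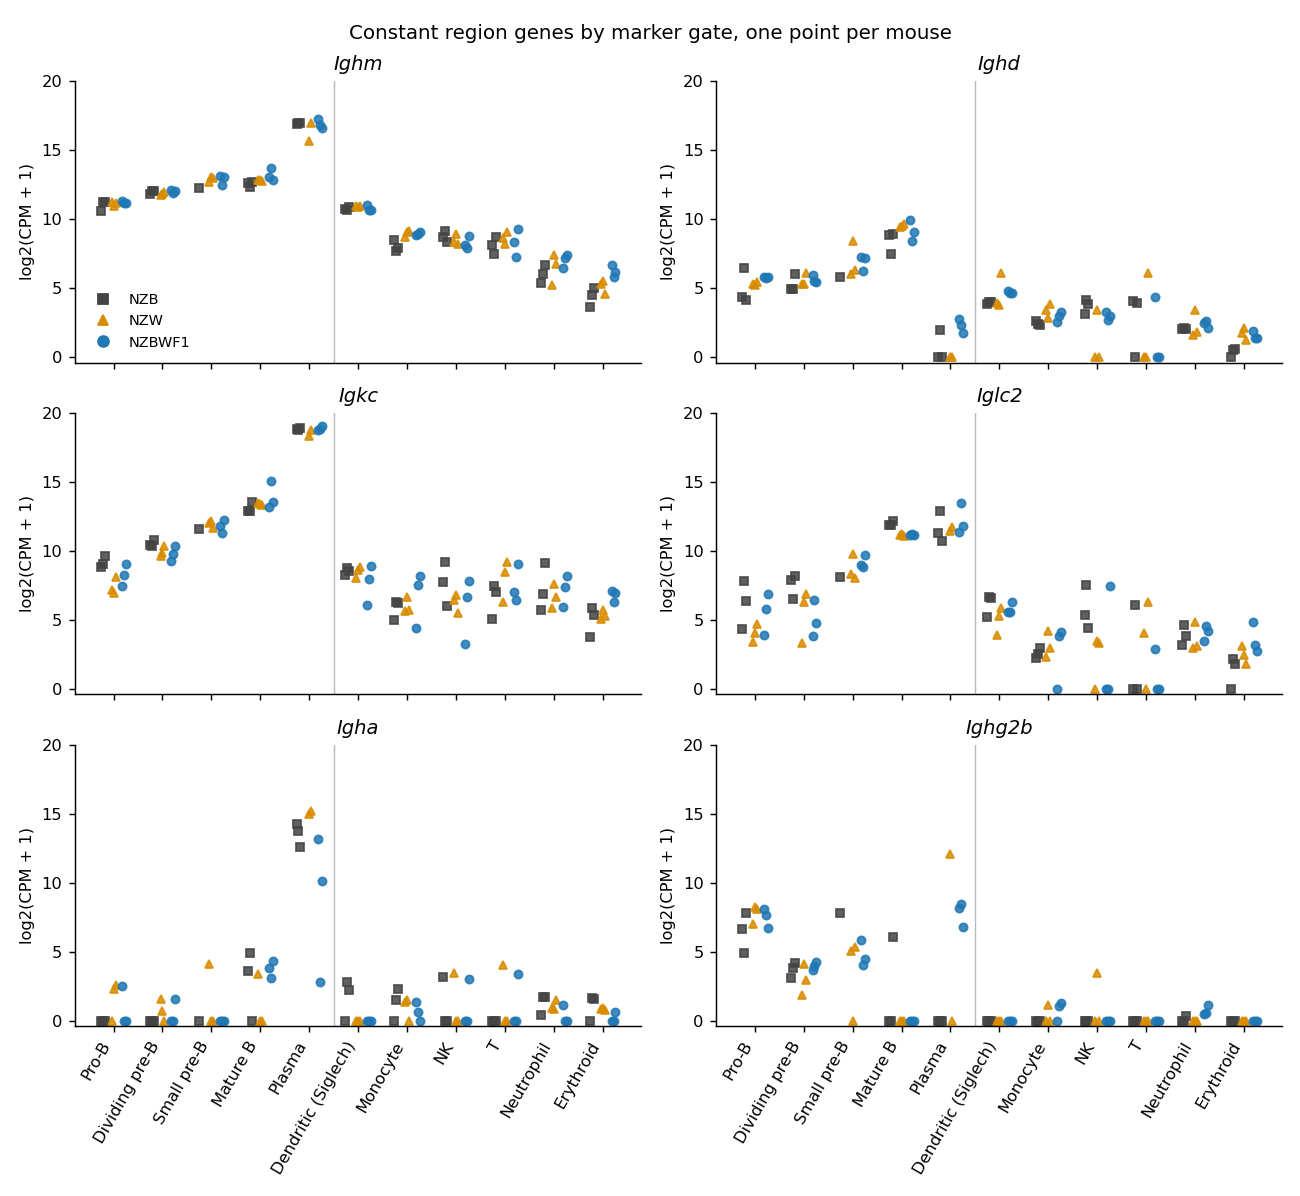
Levels of *Ighm*, *Ighd*, *Igkc*, *Iglc2*, *Igha* and *Ighg2b* as log2(CPM + 1) by marker gate, 1 point per mouse with at least 10 cells in the gate, squares for NZB, triangles for NZW and circles for NZBWF1. B-lineage stages and plasma cells are left of the grey line. *Igkc* climbed through the stages, *Ighd* peaked in mature B cells, *Ighg2b* had its highest median among the stages in pro-B cells, though not in NZB mouse 1, where small pre-B cells stood at 222.2 CPM, and *Ighm* in the dendritic gate with *Siglech* lay between 1583 and 2078 CPM.

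The first comparison asked where these genes were expressed beyond the RNA that floats free in every droplet. UMIs were summed per gate and mouse and compared within mice with edgeR. In the B-lineage gate, all 6 of the 6 members that passed the filter on low counts were higher than in the cells outside, where 37.9% of 10367 genes were higher and 36.8% lower. *Ighm* was higher by 4.19 on the log2 scale (SE 0.07, adjusted p = 2.3e-20), with 4091 to 5930 CPM in the B-lineage gate and 131 to 258 CPM outside. *Igkc* was higher by 4.52 (SE 0.34, adjusted p = 1.8e-06), *Iglc2* by 4.996 (SE 0.36) and *Iglc1* by 4.69 (SE 0.33). *Ighd* was higher by 4.45 (SE 0.13) and *Ighg2b* by 6.82 (SE 0.25). *Ighg1*, *Ighg2c*, *Ighg3* and *Igha* did not pass the filter and stood at a median of 0 to 2.80 CPM in the B-lineage gate. Against totals without scaling factors the median of all genes moved by 0.44, and these directions held. A gene that is high in one gate alone passes the filter through that gate, so the count of members higher reads with that limit.

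Plasma cells were compared in the same way over 8 mice. Against the cells outside, 5 of 6 members tested were higher, with 15.1% of 9445 genes higher and 36.1% lower. The differences on the log2 scale were 14.60 for *Igha* (SE 0.73, adjusted p = 1.1e-06), 13.15 for *Igkc* (SE 0.48), 10.79 for *Iglc1* (SE 1.36), 10.36 for *Ighm* (SE 0.41) and 9.39 for *Iglc2* (SE 0.44). *Igha* held 84 UMIs in the cells outside and 23803 in the plasma gate over all mice. It passed the filter through the plasma gate, so its direction was set by the filter and its size reads against a level near 0. *Ighd* differed by 0.42 (SE 0.59, adjusted p = 0.58), and by -0.88 with totals without scaling factors. Against the B-lineage gate, where 23.4% of 4981 genes were higher and 35.5% lower, 5 of 6 members were higher and 1 lower. *Igha*, *Ighg1*, *Ighg2c* and *Ighg3* did not pass the filter there. *Igkc* was higher by 8.97 (SE 0.23, adjusted p = 7.9e-09), *Ighm* by 6.44 (SE 0.31), *Iglc1* by 6.28 (SE 1.30), *Iglc2* by 4.56 (SE 0.64) and *Ighg2b* by 4.07 (SE 1.20, adjusted p = 0.022). The *Ighg2b* value did not hold in each mouse. Plasma *Ighg2b* was 0 CPM in the 3 NZB mice and NZW mouse 3, below their B-lineage gates at 20.7 to 73.5 CPM, and of the 361 UMIs of NZW mouse 2, the highest, 295 were in 1 cell. *Ighd* fell by 3.69 (SE 0.38, adjusted p = 2.1e-21). The 2 plasma contrasts moved with the scaling. Without scaling factors the median of all genes moved from -0.39 to -1.67 against the outside and from -0.22 to -2.17 against the B-lineage gate, and the directions of the members called held.

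Stages were gated inside the B lineage. Pro-B cells (813) carried *Dntt*, the enzyme that adds bases at joins, and dividing pre-B cells (2731) carried at least 2 UMIs of *Mki67* and *Top2a*. Small pre-B cells (506) carried a *Rag1* or *Rag2* UMI, did not divide and had fewer than 4 of 7 markers of immature and mature B cells. The gate called mature B cells (1043) carried at least 4 of these 7, so it can hold immature cells. Its cells did not divide and had no UMI of *Rag1*, *Rag2*, *Igll1* or *Vpreb1*. Cells with *Dntt* were kept out of the later stages. B-lineage cells that met no rule had no stage but count in the percents of B-lineage cells below. All stages were compared in 1 edgeR fit with the mouse as a block. The median *Ighm* level was 2290 CPM in pro-B cells, 3907 in dividing pre-B, 8054 in small pre-B and 7299 in mature B cells. It was 0.92 higher on the log2 scale in dividing pre-B than in pro-B cells (SE 0.13, adjusted p = 3.6e-06) and 0.75 higher again in small pre-B cells (SE 0.14, adjusted p = 6.5e-05), while mature against small pre-B cells differed by 0.30 (SE 0.14, adjusted p = 0.13). The sign of this last difference was opposite to that of the medians, which cover 7 mice in small pre-B and 9 in mature B cells. *Igkc* went from 308 over 1271 and 3554 to 10989 CPM and rose at each step, by 1.93 (SE 0.33), 1.73 (SE 0.30) and 1.87 (SE 0.30).

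Among the 6 members tested, the step from pro-B to dividing pre-B cells raised 2 and lowered 1, where 22.6% of 4804 genes were higher and 14.3% lower. The next step, to small pre-B cells, raised 5 (*Ighm*, *Ighd*, *Igkc*, *Iglc1* and *Iglc2*) and lowered 0, where 25.1% were higher and 28.9% lower. The last step, to mature B cells, raised 4 (*Ighd*, *Igkc*, *Iglc1* and *Iglc2*) and lowered 1, where 15% were higher and 12.4% lower. Totals without scaling factors moved the median of all genes by -0.12, 0.13 and -0.22 at the 3 steps.

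*Ighd* stayed low until late. Its level was 16.2 to 85.6 CPM in pro-B cells, 29.4 to 68.6 in dividing pre-B cells, 55.5 to 340.7 in small pre-B cells and 172.8 to 973.7 in mature B cells. It rose by 1.25 on the log2 scale into small pre-B cells (SE 0.28, adjusted p = 0.00025) and by 2.62 into mature B cells (SE 0.21, adjusted p = 1.2e-12), and it differed by 0.15 at the first step (SE 0.24, adjusted p = 0.68). In mature B cells 52.4% of cells had an *Ighd* UMI, against 0.838% of neutrophils, which should lack it, at medians of 1340 and 2331 UMIs. *Iglc1* and *Iglc2* rose by 2.31 (SE 0.76) and 2.96 (SE 0.47) into small pre-B cells and by 2.08 (SE 0.61) and 2.37 (SE 0.38) into mature B cells. At the first step they differed by 2.31 (SE 1.14, adjusted p = 0.12) and 0.60 (SE 0.57, adjusted p = 0.45). All 3 light chain genes thus rose at the later steps.

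*Ighg2b* ran the other way. In pro-B cells it stood at 97.2, 28.5 and 218.5 CPM for NZB, 124.7, 301.8 and 264.5 for NZW and 268.6, 195.2 and 104.3 for NZBWF1. In dividing pre-B cells it stood at 2.55 to 18.1 CPM, below the lowest pro-B value in all 9 mice. It fell by 3.83 on the log2 scale between these stages (SE 0.29, edgeR adjusted p = 8.6e-11), and it differed by 1.45 between dividing and small pre-B cells (SE 0.69, adjusted p = 0.078). *Ighg2b* could pass the filter on low counts through pro-B cells, where its median was highest. The direction and p of its fall from pro-B cells read with that limit. In small pre-B cells it ranged from 0 to 222.2 CPM over 7 mice with a median of 31.7, the highest value resting on 4 UMIs of NZB mouse 1. From small pre-B to mature B cells it fell by 3.24 (SE 1.09, adjusted p = 0.029). A UMI was found in 179 of 813 pro-B cells (22.02%, exact 95% interval 19.2 to 25.0), in 58 of 2731 dividing pre-B cells (2.12%), in 15 of 506 small pre-B cells (2.96%), in 1 of 1043 mature B cells and in 0.0639% of 12524 neutrophils. The other *Ighg* genes were near 0 in pro-B cells. *Ighg1* had 0 UMIs in pro-B cells, which allows a share of up to 0.369% of cells with a UMI, and *Ighg2c* and *Ighg3* had a UMI in 1 cell each. Intervals and limits of this kind cover counting error only. The 3 strains overlapped in pro-B *Ighg2b*. Of the 5 members tested there, 0 were called at an adjusted p under 0.05 in any strain comparison, where 0.192% to 1.63% of 4165 genes were called.

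**Figure D2:**
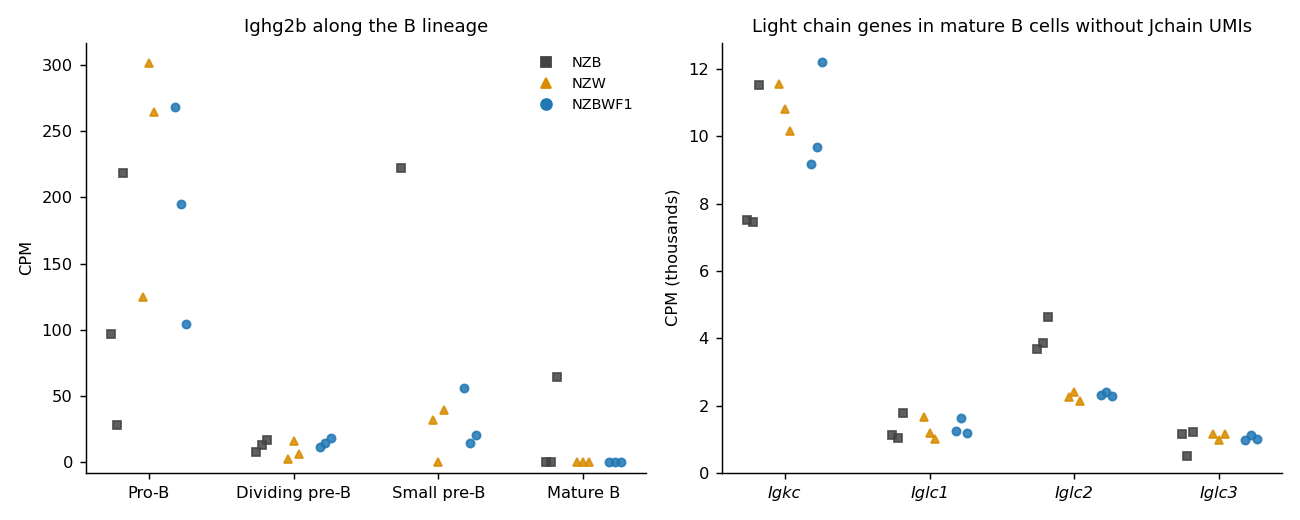
Left, *Ighg2b* in CPM along the B lineage, 1 point per mouse. Pro-B values run from 28.5 to 301.8 CPM and dividing pre-B values from 2.55 to 18.1 CPM. Right, *Igkc*, *Iglc1*, *Iglc2* and *Iglc3* as CPM / 1000 in mature B cells without a *Jchain* UMI, where the 3 NZB mice lie above all others for *Iglc2*, while for *Iglc3* NZB holds both the lowest and the highest mouse.

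Outside the B lineage, free RNA was read from barcodes with fewer than 100 UMIs. It held 1279 to 3950 CPM of *Ighm* and 1623 to 13041 CPM of *Igkc*, with 0.296 to 1.06 *Ighm* UMIs per *Igkc* UMI (median 0.509). The ratio was 0.181 to 1.48 in neutrophils and 0.376 to 1.19 in erythroid cells, ranges that overlap that of free RNA. It was 3.35 to 32.1 in dendritic cells with *Siglech*, 1.86 to 22 in monocytes, 0.943 to 32.0 in NK cells and 0.813 to 8.50 in T cells. Every mouse had more *Ighm* per *Igkc* in its *Siglech* dendritic cells, monocytes and NK cells than in its free RNA. Neutrophils had less in NZB mouse 3 (0.181 against 0.479) and NZW mouse 2 (0.838 against 1.06). They had more in the other mice, and erythroid cells lay on both sides. Beside the UMIs expected from free RNA in a droplet, neutrophils held 3.05 to 15.0 times the *Ighm* and 2.10 to 18.2 times the *Igkc*. The source of these UMIs was not tested.

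The *Siglech* dendritic gate, named for the surface lectin of plasmacytoid dendritic cells, held 1060 cells. *Ighm* stood there at 1583 to 2078 CPM, close to the 1535 to 2588 CPM of pro-B cells, and 92.5% of the cells had an *Ighm* UMI. In 893 cells without a UMI of any of the 9 B-lineage markers the share was 91.9%, and in the 695 of these that also lacked *Igkc* it was 91.8%. In the whole gate, *Igll1* stood at 0 and the 9 B-lineage markers summed to 58.4 to 168 CPM. Neutrophils without B-lineage markers had *Ighm* in 6.71% of cells at a median of 2315 UMIs, compared with 1654 UMIs in the dendritic cells. Thinned to 1000 UMIs, the shares over all cells were 81.0% in dendritic cells, 32.3% in monocytes and 6.02% in neutrophils. Monocytes without B-lineage markers had *Ighm* in 51.5% of 4516 cells, NK cells in 34.3% and T cells in 27.1%.

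Within mice, edgeR compared these gates with neutrophils. Of 5 members tested, 3 were higher and 1 lower in the dendritic gate, where 36.2% of 7453 genes were higher and 39.6% lower. *Ighm* was higher by 3.00 on the log2 scale (SE 0.26, adjusted p = 4.8e-06), *Ighd* by 1.23 (SE 0.30, adjusted p = 0.00032) and *Iglc2* by 0.65 (SE 0.20, adjusted p = 0.0028). *Iglc3* was higher by 4.80 (SE 0.22, adjusted p = 2.9e-09). The *Siglech* dendritic cells held 1139 UMIs of *Iglc3* and 118 of *Iglc2*, with 6.52 to 45 *Iglc3* UMIs per *Iglc2* UMI against 0.256 to 0.657 in free RNA, and 55.5% of the cells had an *Iglc3* UMI. How many of the *Iglc2* UMIs there were reads of *Iglc3* was not tested. *Igkc* differed by -0.06 (SE 0.33, adjusted p = 0.87) and *Iglc1* by -0.99 (SE 0.38, adjusted p = 0.021). Totals without scaling factors moved the median of all genes by 1.32, and both light chain values changed sign, to 1.26 and 0.30. In monocytes 1 of 5 members was higher and 3 were lower, where 39.2% of 8524 genes were higher and 37.3% lower. *Ighm* was higher by 0.90 (SE 0.23, adjusted p = 0.0051), and *Igkc* fell by 1.97 (SE 0.33, adjusted p = 0.00052), *Iglc1* by 2.23 (SE 0.25) and *Iglc2* by 2.04 (SE 0.22), against a move of the median of 1.23 without scaling factors. *Ighm* was higher in both gates under both scalings, and under the stricter gate it was the single member called in dendritic cells and not called in monocytes.

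**Figure D3:**
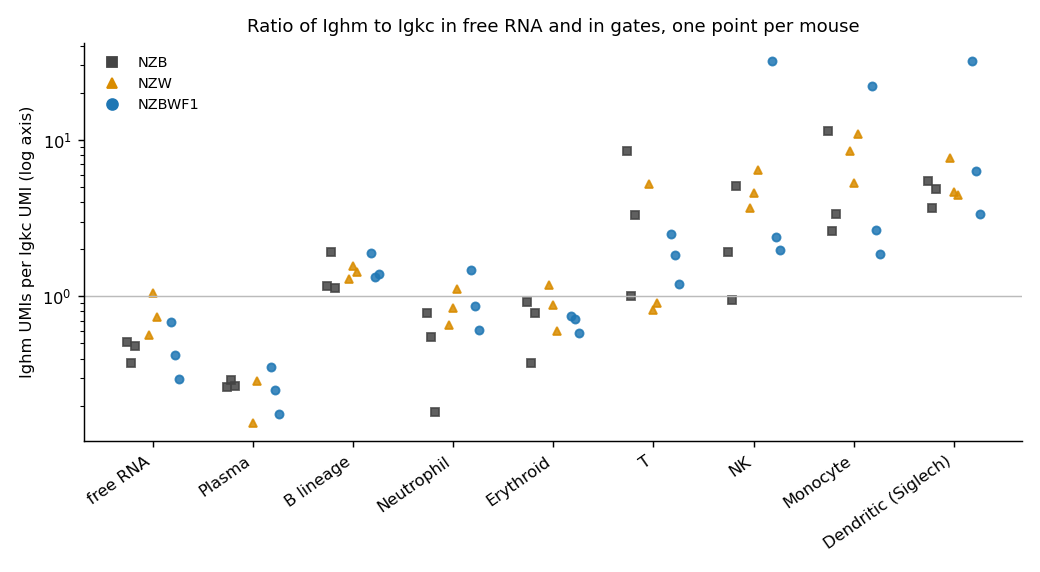
*Ighm* UMIs per *Igkc* UMI on a log axis, in free RNA, plasma cells, the B-lineage gate and 6 gates outside it, 1 point per mouse with squares for NZB, triangles for NZW and circles for NZBWF1. Free RNA lies between 0.296 and 1.06, plasma cells between 0.155 and 0.354, and dendritic cells with *Siglech* between 3.35 and 32.1. The grey line marks a ratio of 1.

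The strains were then compared, with UMIs summed per mouse and the 3 strains in 1 edgeR fit. In the B-lineage gate 0 of 6 members passed an adjusted p of 0.05 in any comparison. The background of called genes was 2.42% of 9678 in NZB against NZW, and for NZBWF1 it was 0.527% against NZB, 0.682% against NZW and 0.186% against the parents' log mean. At an unadjusted p under 0.05 the same comparisons held 1, 1, 0 and 1 members, each time *Iglc2*, among 1184, 890, 604 and 541 of all 9678 genes, and DESeq2 called *Iglc2* in the first and second. *Ighm* stood at 4494, 4091 and 4327 CPM in NZB, 4848, 4429 and 4613 in NZW and 5930, 4299 and 5033 in NZBWF1 mice. Against the parents, NZBWF1 *Ighm* differed by 0.11 (SE 0.09, adjusted p = 0.99). *Iglc2* stood at 1353, 482 and 1069 CPM in NZB, 446, 464 and 388 in NZW and 527, 339 and 387 in NZBWF1. The 3 NZB mice lay above the 3 NZW mice, and NZBWF1 mouse 1 lay above NZB mouse 2. The NZB against NZW difference was 1.17 (SE 0.33, adjusted p = 0.17). Without NZB mouse 2 it was 1.49 (adjusted p = 9.2e-07).

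The mix of stages differed between mice. Mature B cells made up 33.3%, 10.6% and 23.7% of the B-lineage cells in NZB, 16.9%, 14.3% and 14.9% in NZW, and 22.2%, 9.16% and 10.7% in NZBWF1. Each stage was therefore read alone. In mature B cells *Iglc2* stood at 3695, 3773 and 4480 CPM in NZB, 2277, 2411 and 2149 in NZW, and 2295, 2367 and 2264 in NZBWF1 mice. The NZB mice were above all 6 others, which overlapped. Marker sums of the mature gate also differed between NZB and NZW, at 618 to 1123 against 1278 to 2137 CPM for neutrophil markers, 1123 to 1282 against 608 to 878 for plasma markers and 7747 to 9944 against 10822 to 12361 for B-lineage markers, and their part in the *Iglc2* values was not tested. *Iglc2* was the single member of 5 tested that was called in any comparison. It was 0.87 higher on the log2 scale in NZB than in NZW (SE 0.11, edgeR adjusted p = 5.8e-08, background 2.55% of 3923 genes). In NZBWF1 it fell by 0.90 against NZB (SE 0.11, adjusted p = 8.9e-08, background 2.68%) and by 0.46 against the parents' log mean (SE 0.10, adjusted p = 0.0073, background 0.918%), and it differed by -0.02 from NZW (SE 0.11, adjusted p = 1, background 0.51%). The call against the log mean was lost without NZB mouse 3 (adjusted p = 0.093), without NZBWF1 mouse 3 (adjusted p = 0.11) and with totals free of immunoglobulin genes (adjusted p = 0.085).

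*Iglc3*, the near copy, was not called. Its mature B-cell levels were 1149, 547 and 1178 CPM in NZB, 1153, 985 and 1161 in NZW, and 965, 1080 and 1002 in NZBWF1, and NZB differed from NZW by -0.04 (SE 0.16, adjusted p = 0.97). With *Iglc2* and *Iglc3* summed, NZB was still 0.62 higher than NZW (adjusted p = 7.2e-05) and NZBWF1 fell by 0.37 against the log mean (adjusted p = 0.037). How reads of each allele were divided between the near copies was not tested. *Iglc1* differed by 0.12 between NZB and NZW (SE 0.26, adjusted p = 0.93). *Ighd* stood at 466, 173 and 492 CPM in NZB and at 694, 731 and 815 CPM in NZW, a difference of -0.77 that did not pass (SE 0.41, adjusted p = 0.52).

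The split of light chain RNA was measured as the lambda share, *Iglc1* and *Iglc2* among these plus *Igkc*. In mature B cells it was 39.2%, 38.9% and 34.1% in NZB, 25.5%, 24.7% and 23.8% in NZW and 27.5%, 10.7% and 22% in NZBWF1. The strains differed by an exact permutation test over the 280 partitions of 9 mice (p = 0.021, adjusted 0.034 over 8 shares). For a pair of strains with 3 mice each the smallest p is 0.10, which both pairs with NZB reached. NZBWF1 mouse 2 stood apart through 1 cell in the mature gate, which held 567 *Jchain*, 3282 *Igkc* and 838 *Ighm* UMIs and 5 plasma markers. Without it, the share in this mouse was 29.5% and its *Igkc* level went from 34201 to 9680 CPM, and without all cells holding *Jchain* the exact permutation p was 0.018. Leaving out NZW mouse 1, 2 or 3 or NZBWF1 mouse 2 gave an exact permutation p of 0.061, 0.075, 0.071 and 0.057. In the whole B-lineage gate the lambda share was 37.0%, 23.2% and 29.4% in NZB, 16.8%, 20.4% and 16.0% in NZW and 20.6%, 14.4% and 14.2% in NZBWF1 (exact permutation p = 0.021, adjusted 0.034). The exact permutation p was 0.061 to 0.082 without any NZW mouse or without NZBWF1 mouse 2 or 3. The cell with 567 *Jchain* UMIs also lies in this gate, where its 3282 *Igkc* UMIs are part of the 7099 of NZBWF1 mouse 2. The B-lineage share and its test were not repeated without this cell, so the low value of this mouse reads with that limit.

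Single mature B cells were also sorted by the light chain with more UMIs, with *Iglc3* counted as lambda. Lambda led in 32.2%, 25.0% and 22.6% of the cells of the NZB mice, in 15.1%, 8.97% and 9.40% in NZW and in 16.6%, 19.5% and 9.52% in NZBWF1 (exact permutation p = 0.011, adjusted 0.024 over 5 measures). Cells led by *Iglc2* and *Iglc3* together made up 28.8%, 20.8% and 18.9% in NZB, 6.90% to 10.2% in NZW and 7.74% to 10.4% in NZBWF1 (exact permutation p = 0.014, adjusted 0.024). Both shares were higher in every NZB mouse than in any other mouse. These shares rest on 24 to 59 mature B cells per NZB mouse, and the exact permutation p of the first was 0.054 to 0.089 without NZW mouse 2 or 3 or NZBWF1 mouse 1 or 2. Since *Iglc2* itself helps to sort the cells, its level within each kind of cell is a description. In cells led by kappa it averaged 2145 CPM in NZB (SD 337), 2047 in NZW (SD 168) and 1892 in NZBWF1 (SD 168, n = 3 mice each). In cells led by lambda it was 6298 to 12517 CPM in NZB, on 19, 6 and 12 cells, 3787 to 4466 in NZW and 4602 to 5087 in NZBWF1. The leading chain held a median of 75% of a mature B cell's light chain UMIs, against 99.4% in plasma cells.

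**Figure D4:**
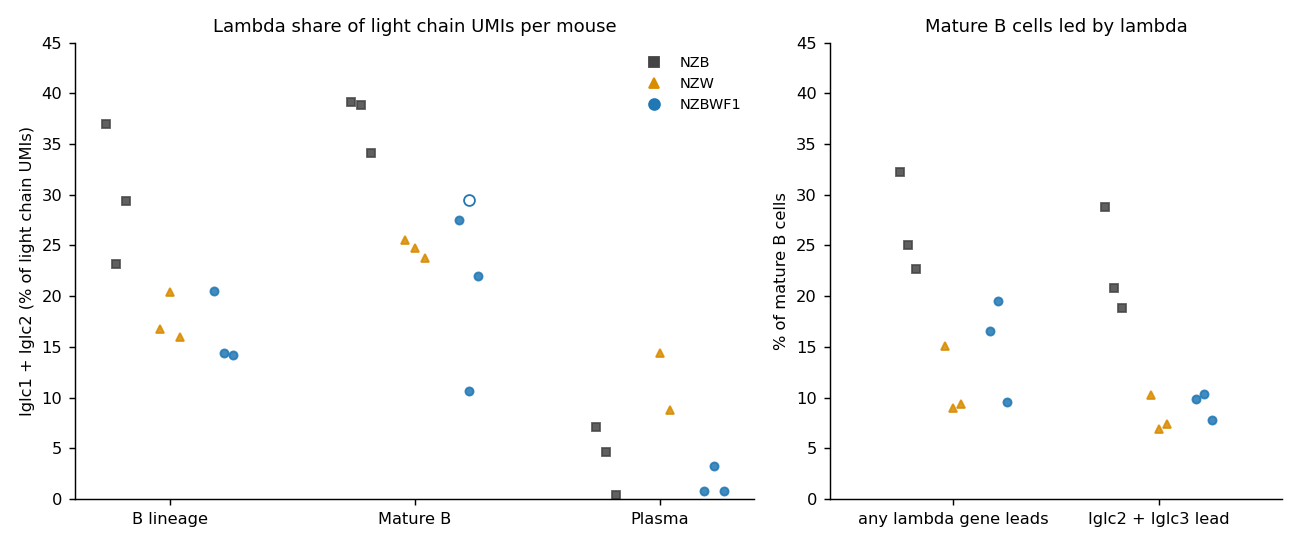
Left, the lambda share of light chain UMIs in the B-lineage, mature B and plasma gates, 1 point per mouse; the open circle is NZBWF1 mouse 2 without the cell holding 567 *Jchain* UMIs. Right, the percent of mature B cells led by any lambda gene or by *Iglc2* plus *Iglc3*. NZB mice lie at 34.1% to 39.2% in mature B cells, above all other mice, and at 0.434% to 7.10% in plasma cells.

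*Ighd* as a share of *Ighm* plus *Ighd* in mature B cells was 6.95%, 3.33% and 6.81% in NZB, 8.57%, 9.10% and 10.8% in NZW and 10.3%, 2.56% and 6.89% in NZBWF1 (exact permutation p = 0.23, adjusted 0.27). The NZW mice lay above the NZB mice, and the NZBWF1 mice spanned both. The low share of NZBWF1 mouse 2 rests in part on the cell with 567 *Jchain* UMIs, which held 838 of its 1715 *Ighm* UMIs. Without cells holding *Jchain* this mouse had 44 *Ighd* and 877 *Ighm* UMIs. No strain comparison called one of the 10 genes in the gates left. *Iglc3*, which is not among the 10, was called for NZB against NZW in pro-B cells, higher by 2.78 (SE 0.77, edgeR adjusted p = 0.043) on 53 UMIs in all mice, and in the dendritic gate, higher by 0.48 (SE 0.15, adjusted p = 0.041). That gate held 9, 11 and 14 cells without *Siglech* of 44, 63 and 61 in NZW and 2, 3 and 0 of 161, 260 and 154 in NZB, and *Iglc3* was found in 26.5% of all cells without *Siglech*. Among the cells with *Siglech*, *Iglc3* stood at 652, 645 and 686 CPM in NZB and 639, 570 and 427 in NZW. In pro-B cells the count was 0 of 5 members, with backgrounds of 1.63% in NZB against NZW and of 0.312%, 0.576% and 0.192% in NZBWF1 against NZB, NZW and the log mean. In dividing pre-B cells it was 0 of 6 (1.97%, 0.382%, 0.894% and 0.131% in the same order) and in small pre-B cells 0 of 6 (0.117%, 0.0877%, 0.175% and 0.0585%), the last with 1 NZB mouse of at least 10 cells (12 cells), so that its values against NZB and the log mean read that mouse, with the spread taken from the other strains. In the dendritic gate it was 0 of 3 (5.49%, 2.77%, 1.05% and 0.486%) and in neutrophils 0 of 5 (12.3%, 4.03%, 1.33% and 0.371%). At an unadjusted p under 0.05, pro-B cells held 2, 0, 1 and 0 members in the same order, among 365, 279, 250 and 202 of all 4165 genes. Dividing pre-B cells held 1, 1, 1 and 0 among 990, 724, 592 and 477 of 8385. The dendritic gate held 1, 0, 0 and 0 among 639, 483, 323 and 244 of 4114, and neutrophils 0 in each among 2196, 1699, 899 and 868 of 8625. The 1 NZB mouse in small pre-B cells differed from NZW by -0.95 for *Ighm*, -0.70 for *Igkc*, -1.45 for *Ighd*, -0.69 for *Iglc1*, -0.94 for *Iglc2* and 2.63 for *Ighg2b*. DESeq2 was not run on these 5 gates.

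In plasma cells 9 of 10 members passed the filter, *Ighd* being the exception, and edgeR called 0 of 9 in each comparison. The background was 1.48% of 1692 genes in NZB against NZW, and for NZBWF1 it was 0.65% against NZB, 0.177% against NZW and 0.177% against the log mean. At an unadjusted p under 0.05 the counts were 0, 1, 1 and 1, each *Ighg2c*, among 175, 119, 126 and 88 of all 1692 genes, and DESeq2 called 1, 2, 1 and 2 members, all *Ighg2b* or *Ighg2c*. The share of all genes that DESeq2 called is not given here, so its counts have no background. Its log2 values for *Ighg2b* were -25.6 in NZB against NZW and 23.0 in NZBWF1 against NZB. They are set by 0 UMIs in NZB. NZW mouse 2 held 361 *Ighg2b* UMIs, 295 of them in 1 cell, and NZW mouse 3 held 0. NZBWF1 differed from the log mean by 0.26 for *Igkc* (SE 0.30, adjusted p = 0.97) and by 0.21 for *Ighm* (SE 0.48, adjusted p = 0.99). Without the 38 cells that scored for another class, only NZW mouse 2 kept 10 plasma cells. Against this mouse, the lowest in *Ighm*, *Ighm* was higher in NZB by 2.18 and in NZBWF1 by 2.10, with the spread taken from the other strains, so these values compare 1 mouse and not the NZW strain.

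Classes were read cell by cell from the heavy chain gene with most UMIs. Of 298 plasma cells, *Ighm* led in 269, *Igha* in 20, *Ighg1* in 4, *Ighg2c* in 4, *Ighg2b* in 1 and *Ighg3* in 0. The leading gene held at least 84.8% of the heavy chain UMIs of its cell in cells with 10 or more, and the median was 100% in *Ighm*-led cells. *Ighm* thus led in 92.9%, 93.8% and 92.5% of cells in NZB, 41.7% and 81.8% in NZW mice 2 and 3, and 85.7%, 92.2% and 96.1% in NZBWF1. NZW lay below the other strains (exact permutation p = 0.025, adjusted 0.038 over 3 classes). For pairs with the 2 NZW mice the smallest p is 0.10. The exact permutation p was 0.067 to 0.10 without NZW mouse 2 or 3 or NZBWF1 mouse 2 or 3.

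*Igha* led in 1, 3 and 3 cells of NZB mice 1 to 3, 3, 3 and 2 cells of NZW mice and 1, 1 and 3 cells of the NZBWF1 mice, where the cell of mouse 2 rests on 3 UMIs. As a share of plasma cells this was 6.96% in NZB (SD 0.64, n = 3), 21.6% in NZW (SD 4.8, n = 2) and 4.01% in NZBWF1 (SD 2.75, n = 3, exact permutation p = 0.011, adjusted 0.032). As a share of heavy chain UMIs, *Igha* was 14.1%, 9.62% and 4.501% in NZB, 32.2% and 22.2% in NZW and 5.28%, 0.00490% and 1.12% in NZBWF1 (exact permutation p = 0.0071, adjusted 0.034 over 8 shares). The NZW mice were highest by both measures, on 3 and 2 cells per mouse. Without NZB mouse 1 or 2 the exact permutation p was 0.086 for the cells and 0.067 for the UMIs, and without NZB mouse 3 it was 0.095 for the cells. Single cells carried much of the count, since 1 cell held 99.4% of the *Igha* UMIs of NZBWF1 mouse 1 and 100% of those of NZB mouse 1.

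*Ighg* genes led in 9 plasma cells. NZW mouse 2 had 3 cells led by *Ighg1* (260, 519 and 282 UMIs) and 1 led by *Ighg2b* (295 UMIs). In NZBWF1, mouse 1 had 1 cell led by *Ighg2c* (430 UMIs), mouse 2 had 1 led by *Ighg1* (1378 UMIs) and 2 by *Ighg2c* (819 and 368 UMIs), and mouse 3 had 1 led by *Ighg2c* (898 UMIs). In NZB, 0 of 102 plasma cells were led by an *Ighg* gene, with upper limits from 7.40% to 23.2% per mouse (exact 95% interval). The share of *Ighg*-led cells did not separate the strains (exact permutation p = 0.16), nor did the *Ighg* share of heavy chain UMIs (exact permutation p = 0.14, adjusted 0.19), which was 0.0479%, 0% and 0% in NZB, 16.6% and 0% in NZW and 1.59%, 4.54% and 0.839% in NZBWF1. Without NZW mouse 3, which leaves NZW mouse 2 alone in its arm, both gave an exact permutation p of 0.014, the smallest these mice allow.

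Each NZBWF1 mouse had a plasma cell led by *Ighg2c*, and none of the parents' mice had. *Ighg2c* stood at 2433, 2382 and 723 CPM in the NZBWF1 plasma cells, at 58.4 and 0 CPM in NZW and at 0 in NZB. Over the strain, NZBWF1 held 2519 UMIs, NZW 8 and NZB 0. Set against a floor of 3 counts over the NZB sum, the pooled NZBWF1 level was 381-fold. This counting bound treats UMIs as separate draws. It does not cover which cells or mice were sampled, so it is no lower limit for the strains. The bound was 204-fold without NZB mouse 3, 228-fold without NZB mouse 2 and 696-fold without NZBWF1 mouse 3. The difference from NZB did not pass (edgeR unadjusted p = 0.0035, adjusted 0.25), nor did that from NZW (adjusted 0.40). It rests on 4 cells. All 4 also held *Ighg2b* UMIs (51, 117, 56 and 138), and *Ighg2c* made up 84.8% to 87.0% of their heavy chain UMIs, below the 89.0% to 100% of *Ighg1*-led cells. Against the same floor in NZB, and with the same limit, the pooled level in NZBWF1 was 208-fold for *Ighg1* and 54.7-fold for *Ighg2b*. In NZW it was 1223-fold for *Ighg1* and 413-fold for *Ighg2b*. These sums include NZW mouse 1, and leaving out single libraries moved the *Ighg2b* bound of NZBWF1 between 29.4-fold and 96.4-fold. For *Ighg1* NZBWF1 mouse 2 held all 1379 NZBWF1 UMIs, 1378 of them in 1 cell, and NZW mouse 2 held 1064 of the 1075 NZW UMIs. For *Ighg2b* NZW mouse 2 held 361 of the 363 NZW UMIs, so each of these 3 bounds rests on NZBWF1 mouse 2 or NZW mouse 2. Without NZW mouse 2 the *Ighg1* bound of NZW was 18.8-fold and *Ighg2b* was at the floor, and without NZB mouse 2 or 3 or NZW mouse 3 these NZW bounds ranged from 657-fold to 2234-fold for *Ighg1* and from 222-fold to 754-fold for *Ighg2b*. Without NZBWF1 mouse 2 its strain had 0 *Ighg1* UMIs, and without NZB mouse 2 or 3 or NZBWF1 mouse 3 the *Ighg1* bound was 112-fold to 593-fold.

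**Figure D5:**
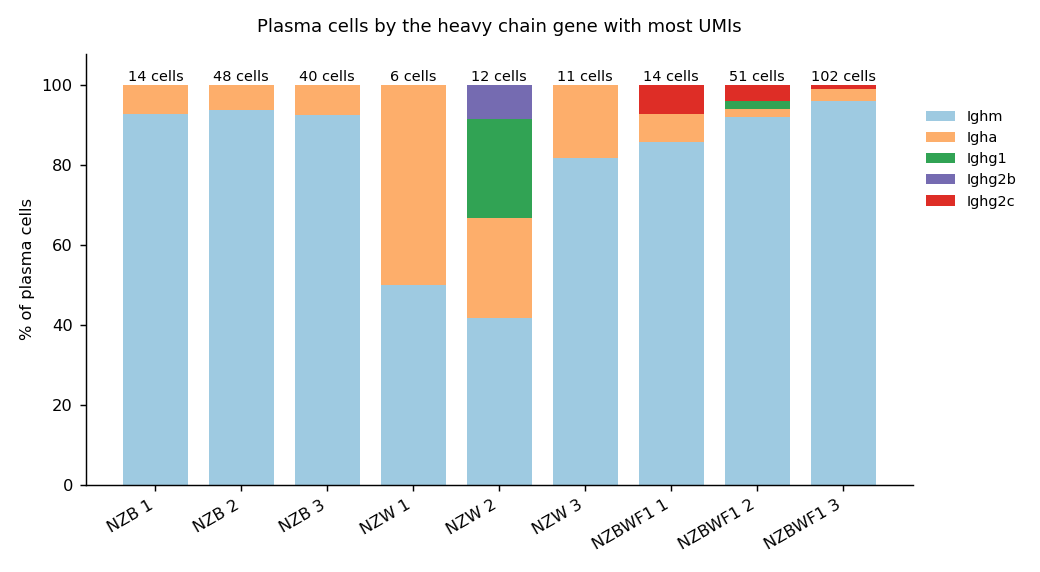
Plasma cells of each mouse by the heavy chain gene with most UMIs, as a percent of its plasma cells, with the number of cells above each bar. *Ighm* led in 269 of 298 cells. *Ighg2c*-led cells were found in the 3 NZBWF1 mice, and *Igha*-led cells in all 9 mice, with the bar of NZW mouse 1 resting on 6 cells.

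The lambda share of plasma cells was 7.10%, 4.63% and 0.434% in NZB, 14.4% and 8.82% in NZW and 0.803%, 3.29% and 0.764% in NZBWF1 (exact permutation p = 0.014, adjusted 0.034). NZW mice 2 and 3 were highest here, on 2 and 1 lambda-led cells. NZW mouse 1, outside the test, held 47 *Iglc1* and 123 *Iglc2* UMIs against 25232 of *Igkc*, with 0 of 6 cells led by lambda. The exact permutation p was 0.057 to 0.095 without NZB mouse 1 or 2 or NZW mouse 2 or 3. Lambda led in 9 of the 298 plasma cells. In some mice a single cell held most UMIs of a lambda gene: 1 cell held 98.2% of the *Iglc1* UMIs of NZB mouse 1, and 1 cell held 82.1% of the *Iglc2* UMIs of NZBWF1 mouse 2. In others the UMIs were spread, and the top cell held 4.02% of *Iglc1* in NZBWF1 mouse 3 and 10.5% of *Iglc2* in NZB mouse 3. In kappa-led plasma cells *Iglc2* stood at 1670 to 3098 CPM.

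Other genes of antibody making were counted from a list of 39, which covers partners of the B-cell receptor, secretion, transcription factors, class switching and receptors for antibody. In the B-lineage gate 0 of the 32 tested rose and 2 fell in NZB against NZW, where 125 of all 9678 genes rose and 109 fell. The other comparisons called 0. At an unadjusted p under 0.05 there were 7 of 32 for NZB against NZW, and 0, 3 and 2 for NZBWF1 against the log mean, NZB and NZW, beside the counts over all genes given above for that gate. *Fcgr2b*, the inhibitory receptor for IgG, stood at 28.0, 32.2 and 35.8 CPM in NZB and 63.1, 66.2 and 61.9 CPM in NZW, and it fell by 0.95 (SE 0.23, edgeR adjusted p = 0.018). *Xbp1*, a factor of the secretory program, stood at 44.8, 25.3 and 37.8 CPM in NZB and 69.4, 60.7 and 68.7 in NZW, and it fell by 0.88 (SE 0.23, adjusted p = 0.030). Leaving out single mice moved the adjusted p of *Fcgr2b* to 0.051 to 0.086 (each NZB mouse, NZW mouse 1 or 2) and that of *Xbp1* to 0.084 to 0.19 (NZB mouse 2 or 3, NZW mouse 1 or 3). In plasma cells 0 of 20 were called in each comparison, while 2, 5 and 0 had an unadjusted p under 0.05 for NZBWF1 against the log mean, NZB and NZW, and 3 for NZB against NZW, among 88, 119, 126 and 175 of all 1692 genes.

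In mature B cells, where *Iglc2* differed, 2 of 22 rose and 2 fell in NZB against NZW, where 62 of all 3923 genes rose and 38 fell. They are named after their values were seen. *Mzb1*, a helper of IgM assembly, stood at 899, 922 and 997 CPM in NZB and at 383, 370 and 291 CPM in NZW, higher by 1.49 (SE 0.18, edgeR adjusted p = 5.8e-09), and *Hsp90b1*, a chaperone, was higher by 0.77 (SE 0.20, adjusted p = 0.020). *Vpreb3* fell by 1.19 (SE 0.19, adjusted p = 1.4e-05) and *Ebf1*, an early B-cell factor, by 0.81 (SE 0.16, adjusted p = 0.00047). *Hsp90b1* lost its call without NZB mouse 1 or 2 or NZW mouse 2 or 3 (adjusted p 0.068 to 0.15). Against NZB, NZBWF1 was higher in *Vpreb3* (1.24) and *Ebf1* (0.74), and *Mzb1* fell by 1.16 and *Apex1*, a DNA repair enzyme, by 2.07. Against the log mean, *Vpreb3* was higher by 0.64 (adjusted p = 0.0085) and *Apex1* fell by 1.77 (adjusted p = 0.017). *Apex1* stood at 75.8, 144 and 77.7 CPM in NZB, 47.1, 53.5 and 84.4 in NZW and 29.6, 30.6 and 11.3 in NZBWF1. These levels rest on few UMIs per mouse, and its calls were not followed with single mice left out. The direction of *Mzb1* was not shared by the dendritic gate, where 2 of 11 rose and 2 fell in NZB against NZW (105 and 121 of all 4114 genes). There *Mzb1* fell by 1.14 (SE 0.23, adjusted p = 0.00027) and *Xbp1* by 0.83 (SE 0.21, adjusted p = 0.0047), while *Hsp90b1* was higher by 0.45 (SE 0.12, adjusted p = 0.015).

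Across 126 sums of 16 gates and mice, the genes most like the members by Pearson correlation of log2(CPM + 1), among 6807 genes outside the immunoglobulin loci, were *Mzb1* for *Ighm* (r = 0.84), *Chst3* for *Ighd* (r = 0.80), *Eaf2* for *Igkc* (r = 0.80) and *Tnfrsf17* for *Igha* (r = 0.87). *Eaf2* came next for *Ighm* (r = 0.75) and *Tnfrsf13c* for *Ighd* (r = 0.79). *Mzb1*, *Eaf2* and *Tnfrsf17* are plasma markers of the gates used here, and sums of a mouse share its library, so these values describe the likeness only.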

How the data were processed

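The authors deposited UMI counts per gene and barcode, made with Cell Ranger 3.1.0 after bcl2fastq 2.20 on mm10, according to the submitters' processing notes, and merged over 9 libraries. The counts are whole numbers without normalization. The sources used here do not say whether depth was equalized when merging, nor how barcode suffixes map to libraries, which were matched by position in the deposited list. Counts fall at 3' ends, so CPM was not divided by length.

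Cells needed 1000 UMIs, 500 genes and at most 10% mitochondrial UMIs, as in the study. Likely doublets were removed with scanpy 1.11.5 (0.8% per 1000 barcodes) outside the plasma gate, where 17 scored cells were kept. Gates took the best class score, at least 0.25 with a margin of 0.15. Plasma cells needed 6 of 10 markers. Limits of the gates were set after the values were seen. Sums per gate and mouse with at least 10 cells were tested with edgeR 4.0.16 (filterByExpr, TMM, robust quasi-likelihood, Benjamini-Hochberg over all genes tested, threshold 0.05). DESeq2 1.42.0 was an alternative. The SE of a log2 difference was its size over the root of the F statistic. Shares were tested by exact permutation of mice, two-sided. Log2 likeness used a pseudocount of 1.

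The members and gene lists were chosen with earlier results of these data known. All 10 members are named, and of the listed partners those called in the plasma or B-lineage gate, up to 5 per comparison. Partners named in mature B and dendritic cells fall outside that rule and were chosen after their values were seen. *Jchain* and other plasma genes defined the plasma gate. Labels give each mouse its strain, and mice of a strain are its replicates. The edgeR procedure was also run on simulated counts for NZBWF1 against the log mean. In the B-lineage gate (9645 genes) it recovered 85 of 100 genes changed 2-fold and 97 of 100 changed 4-fold. In the plasma gate (1575 genes) it recovered 34 and 78 of 100. Recovery at the spread of single members was not tested. In plasma cells the SE of this comparison was 1.11 to 5.49 for the *Ighg* genes, 1.84 for *Igha* and 1.56 for *Iglc1*. It was 0.30 for *Igkc*, 0.48 for *Ighm* and 0.75 for *Iglc2*.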

Additional observations from a re-analysis of the deposited data

Results flagged for a closer look

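The lambda share of light chain UMIs differed between NZB and NZW in opposite directions in 2 gates of the same mice. In mature B cells the NZB mean was higher by 12.7 percentage points (37.4% against 24.7%), and in the whole B-lineage gate by 12.1 points (29.9% against 17.7%), with every NZB mouse above every NZW mouse. In plasma cells the NZB minus NZW difference was -7.56 points (4.06% against 11.6%), with every NZB mouse below NZW mice 2 and 3. NZW mouse 1, left out for its 6 plasma cells, went the other way, with 47 *Iglc1* and 123 *Iglc2* UMIs against 25232 of *Igkc* and 0 lambda-led cells. The change of direction between gates was not tested. The plasma values rest on few cells: lambda led in 1, 2 and 0 plasma cells of the NZB mice and in 2 and 1 of NZW mice 2 and 3.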

How the results depend on the processing

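Of 833 alternative values, 718 kept their direction and side of the threshold or stayed within 1.5 times a count. In the B-lineage gate the members called rose from 0 to 1 for NZB against NZW and for NZBWF1 against NZB with DESeq2 (*Iglc2*), with limits of 500 UMIs and 300 genes (*Iglc2*) and with every gene that had a count (*Igha*). The share of all genes that DESeq2 called is not given here, so its counts of members stand without a background. In plasma cells DESeq2 called 1, 2, 1 and 2 members for NZB against NZW, NZBWF1 against NZB, NZBWF1 against NZW and NZBWF1 against the log mean. Keeping every gene with a count called 1 (*Ighg2c*) in the last 3 of these, and removing cells with markers of another class called 2, 0, 2 and 1 (*Ighm* and *Igkc*), with 1 NZW mouse left. The stricter plasma gate left no NZW mouse with 10 cells, so no value with NZW was made. With totals free of immunoglobulin genes, mature B *Iglc2* against the log mean was -0.40 (adjusted p = 0.085) and 0 members were called there. In dendritic cells against neutrophils, 1 member was called higher and 0 lower under the stricter gate, and 0 lower with totals without scaling factors, where *Igkc* turned to 1.26 (adjusted p = 0.0090) and *Iglc1* to 0.30 (adjusted p = 0.49). In monocytes 2 were called higher with those totals, where *Ighd* turned from -0.38 to 0.82 (adjusted p = 0.012), and 0 under the stricter gate. The lambda share gave exact permutation p = 0.05 in the B-lineage gate under the stricter gate. In mature B cells the exact permutation p was 0.057 without doublet removal and 0.30 at 2000 UMIs and 1000 genes, which left 0 NZB mice with 10 cells. In plasma cells, applying doublet scores in every gate or leaving out cells of another class each left 1 NZW mouse with 10 cells. The shares were therefore not read as a test of the strains in these settings. The cause of these changes was not tested, apart from the loss of mice.

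Leaving out each mouse in turn, the members called ranged from 0 to 2 in the B-lineage gate for NZB against NZW and NZBWF1 against NZB and from 0 to 1 against the log mean (*Igha*, or *Iglc2* and *Iglc1* without NZB mouse 2). They ranged from 0 to 1 in small pre-B cells and, in mature B cells, from 1 to 2 and from 0 to 1 against the log mean, where *Iglc2* was -0.47 to -0.37. The exact permutation p of the lambda share was 0.021 to 0.082 in the B-lineage gate, 0.0036 to 0.075 in mature B cells and 0.014 to 0.095 in plasma cells, and that of lambda-led mature B cells was 0.0071 to 0.089. For the UMI shares of plasma cells the exact permutation p was 0.011 to 0.095 for *Ighm*, 0.0071 to 0.067 for *Igha* and 0.014 to 0.57 for *Ighg*. By leading gene the exact permutation p was 0.025 to 0.10 for *Ighm*, 0.0095 to 0.095 for *Igha* and 0.014 to 0.46 for *Ighg*.

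The labels do not say that a replicate number marks a shared batch or day, and the numbers were not taken to pair the mice, since the correlation of deviations was over 0.1 in only 3 of the 9 pairs of the same number. It was -0.02 to 0.16 in these pairs, against -0.15 to 0.14 for other pairs, and 7 of 9 mice correlated best with their own number, a hint from the data and not the design. With the replicate number as a block, the B-lineage gate still called 0 members. Called genes there went from 234 to 317 (NZB against NZW), 51 to 110 (NZBWF1 against NZB) and 18 to 34 (against the log mean). In mature B cells the block took called genes from 100 to 90, 105 to 89 and 36 to 23 in the same order. It changed no call of a member there. In plasma cells 2 members, *Ighg1* and *Ighg2c*, were called in each of the 4 comparisons. Among all genes, plasma calls went from 25 to 26 for NZB against NZW and from 11 to 16 for NZBWF1 against NZB. They went from 3 to 6 for NZBWF1 against NZW and from 3 to 7 against the log mean. In plasma cells the *Ighg* values rest on 9 cells led by these genes.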
